A study of Zea mays with 68 samples.

Results

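The beta-tubulin gene tub4 (GRMZM2G066191) and the proline-rich protein gene plr354a (GRMZM2G049915) were followed through 4 organs of maize. They are 2 of 109715 gene rows of the deposited expression table. Both were chosen by their levels: among genes that carry a name, they had the largest drop in the vegetative meristem relative to the other organs. Their low level in the meristem is therefore a description and was not tested.

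Expression was measured by RNA-seq of polyA-selected RNA from the inbred line B73, the line behind the maize reference genome. The labels give no treatment and no plant age for these organs. The organs were the tissue labelled "Vegetative Meristem & Surrounding Tissue" with 2 libraries, mature female spikelets with 3, the stem piece labelled Internode 7-8 with 3, and that labelled Internode 6-7 with 3. Spikelets are the small flower clusters of the ear. The first tissue holds the shoot apical meristem together with the tissue around it, so it is not pure meristem. Meristem and spikelet columns were identified by tissue initials, a reading on which their values depend. The internode columns carry the numbers 2, 3 and 4, which are used here as their names. Values are FPKM, fragment counts corrected for transcript length and library total, which set genes of different length on the same scale. Read depth is unknown. In bulk tissue, fewer cells that express a gene and less RNA per cell cannot be told apart.

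Beta-tubulin pairs with alpha-tubulin to form the building block of microtubules, while gamma-tubulin starts their assembly. Microtubules build the division spindle and the phragmoplast of dividing plant cells, and beneath the plasma membrane of growing cells they guide the enzymes that lay down cellulose. Plants carry several genes for each tubulin and use them at different levels in different organs. Proline-rich and hydroxyproline-rich proteins are structural proteins of the cell wall. The reference table lists GRMZM2G066191 as tub4 and TUBB4. It lists GRMZM2G049915 under plr354a, plr354b, plr384, prcw1, PRP and Sf3a2, the last of which is elsewhere the name of a splicing factor subunit, so the naming of this gene is less certain.

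Of the organ marker lists, that of spikelets followed the labels, while those of the meristem and stem wall did so in part. All 11 tested floral MADS-box markers were higher in spikelets than in each internode, and their summed level was 1389 to 1535 FPKM in spikelets, 16.4 to 18.4 in the meristem, 7.23 to 9.18 in internode 7-8 and 4.96 to 6.28 in internode 6-7. Of 16 tested meristem markers 6 were higher and 2 lower in the meristem, where 16.4% and 5.28% of all tested genes were called higher and lower. Their sum of 597 FPKM in both meristem libraries lay within the 565 to 746 of internode 7-8, and the homeobox gene kn1 averaged 138 FPKM in the meristem, 48.1 in spikelets, 250 in internode 7-8 and 158 in internode 6-7. Among the stem secondary wall markers bk2, a COBRA-type gene of stem strength, and both cesa11 rows were below 1 FPKM on average in every organ. The others were present and averaged highest in the internodes, with cesa10 at 63.1 and 67.3 FPKM, the lignin gene BM1 at 53.4 and 70.4 and CesA12 at 3.44 and 4.65 in internode 7-8 and internode 6-7.

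In the meristem, tub4 stood at 3.65 and 2.23 FPKM. The 3 spikelet libraries held 83.4, 60.5 and 87.3 FPKM. Internode 7-8 libraries 2, 3 and 4 held 45.6, 57.4 and 56.8 FPKM, and internode 6-7 libraries 2, 3 and 4 held 136, 171 and 178 FPKM. From low to high the organs ran meristem, internode 7-8, spikelets and internode 6-7, with no overlap between any neighbours in that order, although the step from internode 7-8 to spikelets did not pass the test given further on. The lowest of the 9 other libraries was 12.5 times the higher meristem library. Mean levels were 2.94 ± 1.00 FPKM (SD, n = 2) in the meristem, 77.1 ± 14.5 (n = 3) in spikelets, 53.2 ± 6.62 (n = 3) in internode 7-8 and 162 ± 22.3 (n = 3) in internode 6-7. Relative to the meristem, the mean was 26.2-fold higher in spikelets, 18.1-fold in internode 7-8 and 55.0-fold in internode 6-7.

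The gene plr354a reached 2.93 and 8.07 FPKM in the 2 meristem libraries. Spikelet libraries 1, 2 and 3 had 337, 189 and 466 FPKM. In internode 7-8, libraries 2, 3 and 4 had 275, 204 and 113 FPKM, against 191, 402 and 472 FPKM in libraries 2, 3 and 4 of internode 6-7. Outside the meristem all 3 organs overlapped, and their order by mean (internode 7-8, spikelets, internode 6-7) did not exceed the spread of their libraries. Means were 5.50 ± 3.63 FPKM (SD, n = 2) in the meristem, 331 ± 138 (n = 3) in spikelets, 197 ± 81.2 (n = 3) in internode 7-8 and 355 ± 146 (n = 3) in internode 6-7. The gap between the higher meristem library and the lowest other library was 14.0-fold.

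**Figure D1:**
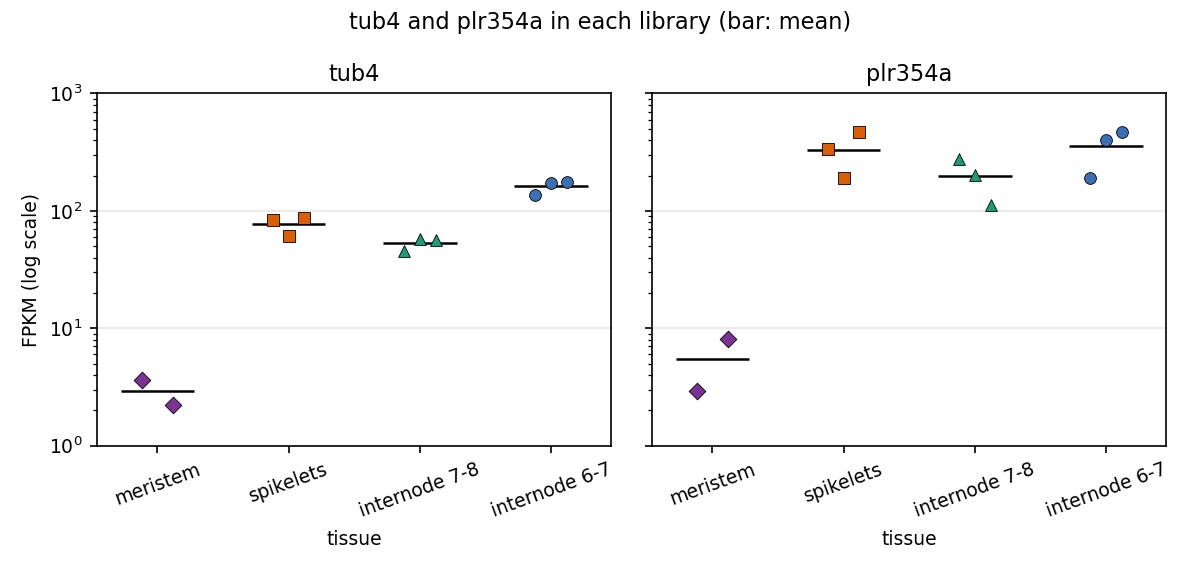
FPKM of tub4 (left) and plr354a (right) on a log axis, with 1 point per library and a bar at the mean of the meristem (n = 2), spikelets, internode 7-8 and internode 6-7 (n = 3 each). Both genes lie below 10 FPKM in the meristem. Outside it the organs do not overlap for tub4, although its step from internode 7-8 to spikelets did not pass the test. For plr354a, with a 2.43- to 2.46-fold range inside each organ, they overlap.

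Rank within the library put these levels in context. Among 29827 tested genes, plr354a lay above 95.1% to 99.0% of genes in all 9 spikelet and internode libraries, and above 27.3% and 47.4% of genes in the meristem libraries. For tub4 these shares were 31.1% and 22.1% in the meristem, 90.5% to 93.6% in spikelets, 87.9% to 90.3% in internode 7-8 and 96.2% to 97.0% in internode 6-7. Neither gene was at 0 in any library.

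The contrast that chose the genes set the meristem against the mean of the other 3 organs on the log2(FPKM + 1) scale, which understates the change of low values. On it plr354a had a difference of -5.49 (SE 0.45) and tub4 of -4.50 (SE 0.19). Of all tested genes 21.7% were called in this contrast, 5.28% as lower, where a call needs a limma adjusted p (Benjamini-Hochberg) under 0.05 and a difference of at least 1. Meristem libraries lay below all others for 7.31% of genes, the pair among them. By size plr354a was 2nd and tub4 6th from the lowest, with genes that carry no name in the other leading places. The next named gene outside the pair was the beta-glucosidase gene glu1 (GRMZM2G016890), at -3.94.

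The pair differed from each other in steadiness. The coefficient of variation of tub4 was 18.8% in spikelets, 12.4% in internode 7-8 and 13.8% in internode 6-7, whereas that of plr354a was 41.9%, 41.1% and 41.1% in the same organs. Library 2 was the lowest of its organ for both genes in spikelets and in internode 6-7. In internode 7-8 library 2 was the lowest for tub4 and the highest for plr354a, and the 2 meristem libraries also stood in opposite order for the 2 genes.

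Whether the stem piece labelled 7-8 differed from that labelled 6-7 is a question the choice of the genes did not use. It was asked in a fit over all genes with limma, in which 0.124% of genes were called in either direction and 0.107% as lower. The tub4 transcript fell to 53.2 FPKM in internode 7-8, against 162 FPKM in internode 6-7, a log2 difference of -1.58 (SE 0.20, 95% interval -2.03 to -1.14, adjusted p = 0.0286). All 3 libraries of internode 7-8 lay below all 3 of internode 6-7, as did 11.1% of all tested genes. The call rested on the spread borrowed from the other organs and on single libraries: with the internodes alone in the fit the adjusted p was 0.0508, and without internode 6-7 library 3 or 4 or internode 7-8 library 2 or 4 it was 0.085, 0.0988, 0.138 and 0.0899.

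For plr354a the internodes did not pass the test, with a log2 difference of -0.84 (SE 0.47, 95% interval -1.88 to 0.21, limma adjusted p = 0.528). The interval reaches from a difference larger than that of tub4 to a small increase, so these libraries do not show that plr354a was alike in both stem pieces.

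Spikelets were set against each internode in the same fit; both comparisons use the same 3 spikelet libraries. Against internode 6-7, 32.9% of tested genes were called, and tub4 was among the 19.9% called lower, with a log2 difference of -1.07 (SE 0.20, limma adjusted p = 0.00143) and all 3 spikelet libraries below all 3 internode libraries, as for 39.4% of genes. This call was at the edge of the size threshold. The difference was -0.76 after median-of-ratios scaling, -0.91 without spikelet library 2 and -0.997 without internode 6-7 library 4, each short of the threshold. The median over all genes was -0.28 in this comparison and -0.02 after scaling. Of the calls, 39.6% were higher in spikelets, and 56.6% after scaling.

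Against internode 7-8, where 26% of tested genes were called, tub4 was not. Of these calls 47.2% were higher in spikelets, and 63.1% after scaling. The spikelet libraries of 60.5 to 87.3 FPKM lay above the 45.6 to 57.4 FPKM of internode 7-8, as they did for 20.4% of genes, and the log2 difference was 0.51 (95% interval 0.07 to 0.96, limma adjusted p = 0.0564). After scaling it was 0.77 (adjusted p = 0.0119). Without spikelet library 1, 2 or 3 it was 0.45, 0.68 and 0.42 (adjusted p = 0.152, 0.0268 and 0.132). All these values were short of the size needed for a call. For plr354a the difference was -0.10 against internode 6-7 (95% interval -1.14 to 0.95, adjusted p = 0.876) and 0.74 against internode 7-8 (95% interval -0.30 to 1.78, adjusted p = 0.22). Its sign against internode 6-7 turned to 0.22 after scaling. Both intervals are wide, so no likeness of the organs is shown for this gene.

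Named beta-tubulins served as the family background of tub4. The reference table names 8, and 6 have a row that passed the filter on low values. Tubulin genes are close relatives, and the sources used here do not say how the authors' counting divided reads shared between them, so the levels of single members are less certain than their sum. The 5 others had a smaller drop in the meristem or none. This follows from the choice of tub4 by its drop among named genes and is no finding about the family. TUB1 (GRMZM2G164696) had 509 and 453 FPKM in the meristem, and the gene listed as tub5 and tub8 (GRMZM2G133802) had 449 and 368 FPKM there.

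These 2 genes supplied most of the beta-tubulin message in the meristem, and tub4 was the lowest of the 6 in both libraries. The summed level of the 6 genes was 1035 and 880 FPKM in the meristem. It ranged from 816 to 1268 FPKM in spikelets, from 1494 to 2151 in internode 7-8 and from 1723 to 1957 in internode 6-7. Thus the sum in the meristem, in unscaled FPKM, overlapped that of spikelets and lay below that of both internodes. Median-of-ratios scaling divides by 1.145 and 1.191 in the meristem and by 0.8329, 0.8124 and 0.924 in spikelets. It moves these organs apart, and the overlap holds for unscaled FPKM only. Taken within a library, which removes differences in scaling between libraries, tub4 made up 0.352% and 0.254% of the sum in the meristem. Its share was 10.2%, 6.36% and 6.89% in spikelets, 2.62%, 3.84% and 2.64% in internode 7-8 and 7.15%, 9.94% and 9.09% in internode 6-7.

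**Figure D2:**
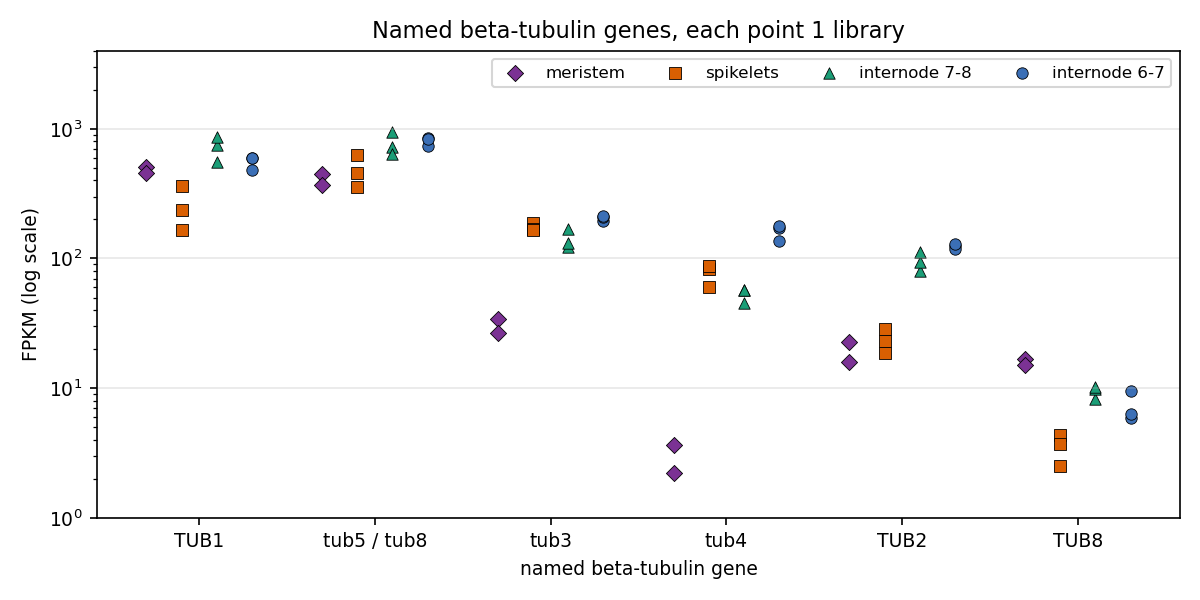
FPKM of the 6 tested, named beta-tubulin genes on a log axis, with 1 point per library, coloured by organ. TUB1 and the gene listed as tub5 and tub8 lie at 368 FPKM or more in the meristem, tub3 drops there to 26.8 and 34.4 FPKM, and tub4 lies lowest of all at 2.23 and 3.65 FPKM.

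In the meristem contrast, which did not choose these genes, 2 of the other 5 beta-tubulins fell and 1 rose. The gene tub3 (GRMZM2G108766) came nearest to tub4, with 34.4 and 26.8 FPKM in the meristem against 165 to 188 in spikelets, 124 to 169 in internode 7-8 and 193 to 214 in internode 6-7. Its log2 difference was -2.46 (SE 0.15, limma adjusted p = 4.14e-06). TUB2 (GRMZM2G334899) fell by 1.72 (adjusted p = 0.000103). Without scaling, its 22.7 and 15.9 FPKM in the meristem overlapped the 18.6 to 28.8 of spikelets, an overlap that scaling removes. TUB8 (GRMZM2G472945), a weakly expressed gene whose name is shared with GRMZM2G133802, rose by 1.23 (adjusted p = 0.00112), with 16.7 and 15.1 FPKM in the meristem against at most 10.2 in any other library. TUB1, at 0.07, and GRMZM2G133802, at -0.70, did not reach the size needed for a call.

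Of the 4 tested alpha-tubulin genes, the partners of beta-tubulin, 2 fell in the meristem and none rose. The gene tua6 (GRMZM2G083243) fell by 1.82 (limma adjusted p = 4.32e-05), with 20.3 and 16.9 FPKM in the meristem against 31.9 to 44.8 in spikelets, 51.5 to 77.0 in internode 7-8 and 129 to 137 in internode 6-7. The gene tua5 (GRMZM2G099167) fell by 1.10 (adjusted p = 0.00128), with meristem libraries inside the range of spikelets in unscaled FPKM but not after scaling. The most abundant member, tua4 (GRMZM2G152466), had a difference of -0.54 and 2126 FPKM on average in the meristem. The row shared by TUA1 and TUA2 (GRMZM2G153292) had -0.80, and passed the size threshold at -1.06 after scaling. Neither gamma-tubulin gene passed the limma test (1 of the 2 had an unadjusted p under 0.05), with differences of 0.18 (GRMZM2G073888) and 0.76 (GRMZM2G085970).

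Median log2 differences in the meristem contrast were -0.70 over the 5 beta-tubulins other than tub4, -0.95 over the alpha-tubulins and 0.47 over the gamma-tubulins, beside 0.20 over all tested genes. Among all tested genes 16.4% rose and 5.28% fell. After median-of-ratios scaling the median over all genes was -0.01, and the share of higher calls was 60.3%, beside 75.6% without scaling. The calls of tub3, TUB2, TUB8 and tua6 kept their direction and their side of the threshold after scaling.

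Between the internodes tub4 was the 1 tubulin gene of 12 that passed the limma test, and 3 of the 11 others had an unadjusted p under 0.05, as did 11.8% of all genes. The next was tua6, whose 51.5, 62.6 and 77.0 FPKM in internode 7-8 lay below the 137, 129 and 137 FPKM of internode 6-7, with a log2 difference of -1.08 (limma adjusted p = 0.0577). The values of tub3 were -0.54, of TUB2 -0.39, of GRMZM2G133802 -0.08, of TUB1 0.36 and of TUB8 0.37, so members pointed both ways. The median was -0.08 over the 5 beta-tubulins other than tub4 and -0.32 over alpha-tubulins, beside -0.04 over all genes.

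Against both internodes, spikelets had less transcript of TUB1, TUB2, tua5 and both gamma-tubulins, 5 of 12 tubulin genes, where 19.9% and 13.7% of all genes were called lower against internode 6-7 and 7-8. TUB2 stood at 23.4 ± 5.10 FPKM (SD, n = 3) in spikelets, against 95.5 ± 16.5 in internode 7-8 and 124 ± 5.32 in internode 6-7 (n = 3 each). TUB1 stood at 255 ± 98.1 FPKM in spikelets, against 724 ± 153 in internode 7-8 and 556 ± 63.6 in internode 6-7. The gene tub3, like tub4, was not called against internode 7-8, at 0.31. TUB8 fell against internode 7-8 by 1.23, and tua6 fell by 1.82 against internode 6-7. After scaling, the call of TUB1 against internode 6-7 was lost at -0.87, as was that of tua5 against internode 7-8 at -0.81.

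**Figure D3:**
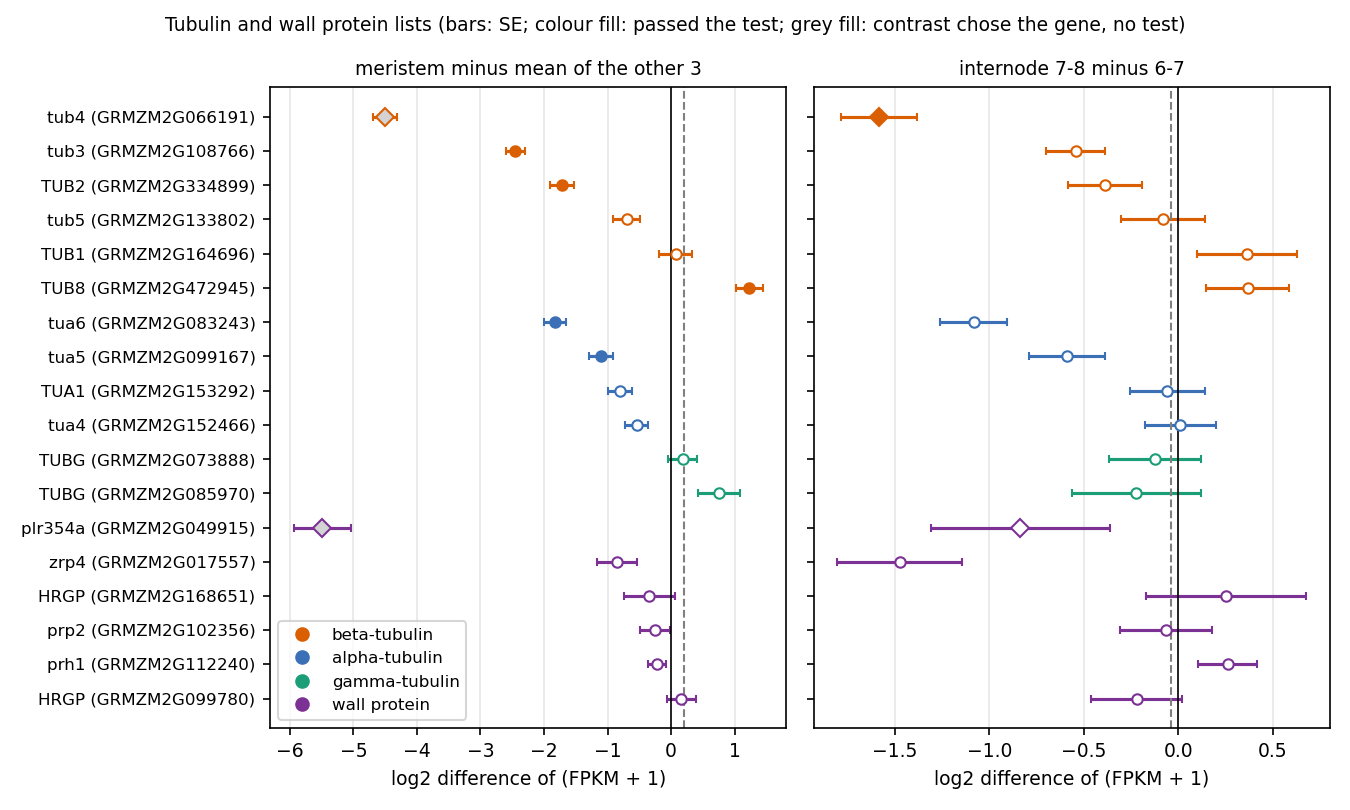
Log2 differences with SE for the 12 tubulin genes and the 6 wall protein genes, for the meristem against the mean of the other organs (left) and internode 7-8 against 6-7 (right). Colour-filled symbols passed the limma test, grey diamonds are the 2 genes this contrast chose, white symbols did not pass, and the dashed line is the median of all tested genes (0.20 left, -0.04 right). On the left tub4 and plr354a lie below every other gene, an order set by their choice as the named genes with the largest drop. On the right tub4 is the filled symbol.

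Within the beta-tubulin sum, tub4 took a smaller share in internode 7-8 than in internode 6-7 and spikelets. The mean share was 3.03% ± 0.70 (SD, n = 3) in internode 7-8 and 8.73% ± 1.43 (n = 3) in internode 6-7, with no overlap (two-sided exact permutation p = 0.1, the smallest that 3 against 3 can give, adjusted p = 0.2 over 6 tests). In spikelets it was 7.82% ± 2.09 (n = 3), which did not overlap internode 7-8 (exact p = 0.1, adjusted p = 0.2) but overlapped internode 6-7 (exact p = 0.7, adjusted p = 0.84). The summed beta-tubulin level was lower in spikelets than in internode 6-7, while the sums of the internodes overlapped.

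The ratio of plr354a to tub4 was 0.803 and 3.61 in the 2 meristem libraries, 3.13 to 5.34 in spikelets, 1.99 to 6.03 in internode 7-8 and 1.41 to 2.65 in internode 6-7. Meristem library 1 was the lowest of all 11 and library 2 lay within the range of spikelets. Spikelets were above internode 6-7 without overlap (exact permutation p = 0.1, adjusted p = 0.2). Internode 7-8 overlapped both internode 6-7 (exact p = 0.3, adjusted p = 0.45) and spikelets (exact p = 0.9, adjusted p = 0.9).

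**Figure D4:**
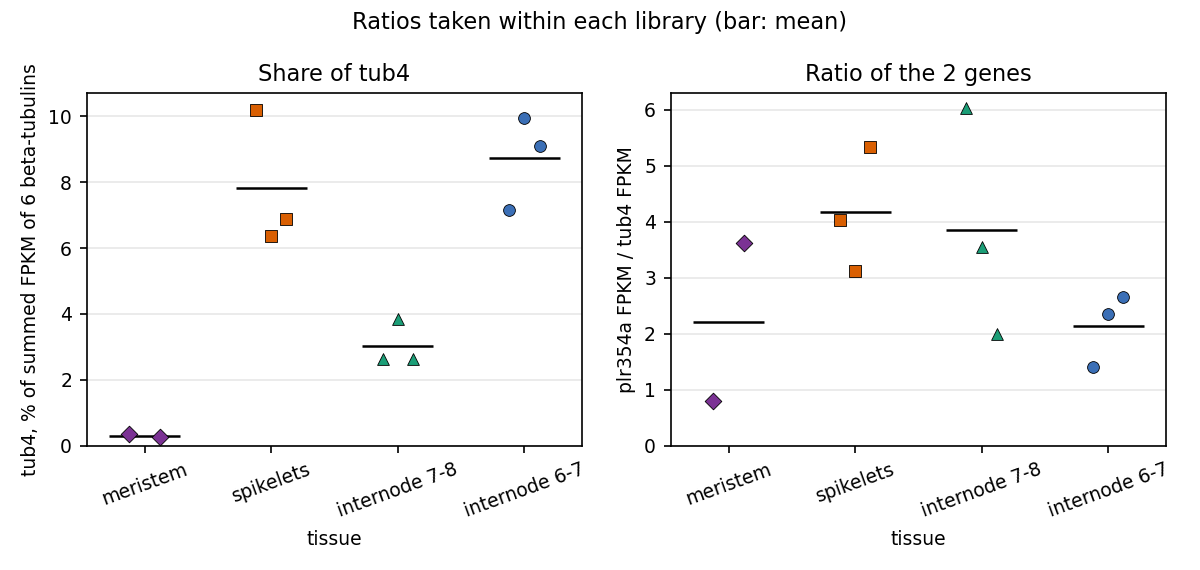
Ratios taken within each library: tub4 as a percentage of the summed FPKM of 6 named beta-tubulins (left) and plr354a FPKM over tub4 FPKM (right), with 1 point per library and a bar at the mean, for the meristem (n = 2), spikelets, internode 7-8 and internode 6-7 (n = 3 each). The share of tub4 lies at 0.254% and 0.352% in the meristem and between 2.62% and 3.84% in internode 7-8, below all spikelet and internode 6-7 libraries, while the ratio of the 2 genes spreads widely within organs.

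A list of wall protein names was read beside plr354a; 6 of its 7 rows passed the filter. The list was built on symbols, and some of its members are known for other functions. The gene zrp4 is an O-methyltransferase, prh1 is also listed as the protein phosphatase PP1, and prp4, listed at 0 in every library, is also named PR-1. None of the 5 other tested genes was called by limma in the meristem contrast, and 1 of them, zrp4, had an unadjusted p under 0.05, as did 49.7% of all genes. With pseudocounts of 0.1 and 0.5 FPKM zrp4 was called lower in the meristem, at -2.48 and -1.25, on levels of at most 0.0758 FPKM there. The hydroxyproline-rich glycoprotein gene HRGP (GRMZM2G168651), an extensin-type wall protein, held 220 and 478 FPKM in the meristem, within or above the 179 to 281 of the internodes. Its spikelet libraries held 1637, 677 and 2461 FPKM.

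HRGP thus rose in spikelets against internode 6-7 by 2.77 and against internode 7-8 by 2.52 (limma adjusted p = 0.000446 and 0.000937), comparisons in which plr354a gave -0.10 and 0.74. The proline-rich gene prp2 (GRMZM2G102356) rose in the same comparisons by 1.98 and 2.05, at a low level of at most 4.42 FPKM in any library. Of all genes 13% and 12.3% were called higher in these comparisons. The gene zrp4 (GRMZM2G017557) was called lower in spikelets against internode 6-7, at -1.02. Its levels were low and overlapped, at 2.03, 0.185 and 0.213 FPKM in spikelets and 1.57, 3.02 and 2.52 in internode 6-7. The call was lost after scaling (-0.88), with the compared tissues alone, and without internode 6-7 library 3 or 4 or spikelet library 2 or 3. The second row named HRGP (GRMZM2G099780) stood at 9.96 ± 0.76 FPKM in the meristem (SD, n = 2), 6.55 ± 2.92 in spikelets, 9.59 ± 1.35 in internode 7-8 and 11.3 ± 0.79 in internode 6-7 (n = 3 each). Over the 5 genes other than plr354a the median was -0.25 in the meristem contrast, beside 0.20 over all genes.

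Cellulose synthases, which travel along microtubules, and genes with microtubule-related names were read as further lists. The microtubule list was built on symbols, so some members may have other functions. Its KIN5 row (GRMZM2G300133) is also listed as TD1 and counted among the meristem markers, and spr9 is also listed as SRP9. Of 8 tested cellulose synthase genes cesa5 (GRMZM2G111642) was called lower in the meristem, at -1.04 (limma adjusted p = 0.0201), none was called higher, and the median was -0.50, where 5.28% of all genes were called lower. This count was unsteady: it was 3 after scaling and without internode 6-7 library 3 or spikelet library 2, and 0 without meristem library 1, spikelet library 3, internode 7-8 library 2 or internode 6-7 library 2. Of 15 genes on the microtubule list, mostly with kinesin-type names, none was called by limma in the meristem, where 3 had an unadjusted p under 0.05, against 49.7% of all genes, and the median was 0.17. Between the internodes no gene of either list passed the limma test, while 4 cellulose synthases and 1 gene of the microtubule list, each lower in internode 7-8, had an unadjusted p under 0.05, beside 11.8% of all genes. In spikelets 8 of these 15 genes were lower and 1 was higher than in each internode, against 19.9% and 13.7% of all genes called lower against internode 6-7 and 7-8. The gene that was higher, kin1 (GRMZM2G158394), stood at 65.8 ± 22.4 FPKM in spikelets, 6.17 ± 2.05 in internode 7-8 and 3.76 ± 3.21 in internode 6-7 (SD, n = 3 each), and whether it encodes a kinesin is not given by the reference table.

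Some green-tissue genes were low in the meristem as the pair were. Of 6 tested leaf markers 4 were lower and 2 higher in the meristem (5.28% and 16.4% of all genes), and the lower ones included the light-harvesting gene lhcb3 (GRMZM2G155216) at 11.4 and 8.52 FPKM in the meristem, against 40.3 to 60.8 in spikelets, 37.3 to 404 in internode 7-8 and 299 to 407 in internode 6-7. The summed level of the 6 genes was 70.2 to 74.1 FPKM in the meristem, 178 to 220 in spikelets, 92.5 to 490 in internode 7-8 and 402 to 526 in internode 6-7. One of the lower genes, Ppdk1 (GRMZM2G306345), was as low in internode 7-8, unlike the pair. It averaged 0.285 FPKM in the meristem, 0.259 in internode 7-8, 1.51 in internode 6-7 and 10.0 in spikelets. The higher genes were Pep1 (GRMZM5G899080) and me3 (GRMZM2G085019). In the meristem libraries Pep1 held 43.7 and 42.2 FPKM, the largest part of the summed level there. Between the internodes the photosystem gene psbs1 (GRMZM2G077333) was called lower in internode 7-8, as tub4 was. In internode 7-8 lhcb3 held 37.3, 172 and 404 FPKM in libraries 2, 3 and 4, the reverse of the order of plr354a. A further row named pep1 (GRMZM2G083841), also listed as pepc and PEPC1, was below 0.1 FPKM in every library. The row GRMZM5G899080 carries the name Pep1 alone, so its place among the leaf markers is uncertain. The part of green tissue in the level of tub4 or plr354a was not tested.

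Likeness of pattern was described by Pearson's r of log2(FPKM + 1) over the 11 libraries, without a p-value, since the points share their organs and the low meristem sets much of the value. Among 16683 genes with a mean of at least 10 FPKM in some organ, r with tub4 was at least 0.9 for 181 genes (1.08%) and r with plr354a for 147 genes (0.881%). The pair themselves reached 0.942, and 0.561 over the 9 libraries outside the meristem. Of the genes whose main symbol is a name, the bHLH gene ms32 (GRMZM2G163233, a row shared by 2 reference genes) was the nearest to both, at 0.939 with tub4 and 0.922 with plr354a. Its own level was 18.1 FPKM in the meristem, 41.0 in spikelets, 30.7 in internode 7-8 and 43.0 in internode 6-7. Outside the meristem its r was 0.74 with tub4 and 0.769 with plr354a. Its smaller drop follows from the choice of the pair by their drop among named genes.

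Next to tub4 followed bk4 (GRMZM2G168364) at 0.871, RAB2B (GRMZM2G173878) at 0.869, CNR7 (GRMZM2G119755) at 0.847 and GRMZM2G036765 at 0.839. Outside the meristem these values were 0.656, 0.448, 0.164 and 0.45, in the same order. Next to plr354a followed CNR7 at 0.861, CCOAOMT2 (GRMZM2G099363), an enzyme of lignin synthesis, at 0.844, AKHSDH1 (GRMZM2G389303) at 0.831 and bk4 at 0.814. For plr354a the values outside the meristem were 0.341, 0.697, 0.203 and 0.491, so the low meristem carried much of each likeness. When names among the synonyms were admitted, a choice made after the values were seen, the nearest to tub4 was its relative tub3, at 0.984 and 0.868 outside the meristem. The nearest to plr354a was then cys2 (GRMZM2G005887) at 0.957, followed by tub4. For plr354a and tub3 the value of 0.938 over 11 libraries stood beside 0.328 outside the meristem.

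Gene neighbours were read from the order of genes in the reference table, since the sources used here do not name the build of the deposited table, and no coordinates are printed. The nearest genes with a row on either side of tub4 were GRMZM2G010146 and GRMZM2G035632. They stood at 11.3 and 5.70 FPKM on average in the meristem, with log2 differences of -0.01 and 0.36 in that contrast, and neither was called. On either side of plr354a lay GRMZM2G472703, listed at 0 in all 11 libraries, and GRMZM2G035305, which rose in the meristem contrast by 2.57 (limma adjusted p = 7.65e-05). That gene stood at 63.6 FPKM in the meristem, 58.7 in spikelets, 5.70 in internode 7-8 and 2.45 in internode 6-7. None of the 3 tested neighbours was called lower in the meristem contrast, where 5.28% of all tested genes were, so the count says little about the neighbourhood.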

How the data were processed

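RNA-seq of B73 organs was deposited as FPKM per gene. Per the labels' protocols, libraries were polyA-selected and made strand-specific with dUTP. Per the submitters' processing notes, the authors' tools included Cufflinks 2.1.1, TopHat2 2.0.8b and Bowtie2 2.1.0. The sources used here do not give build, annotation, settings or strand use in counting, so reads of overlapping or antisense genes may be shared. Of 68 value columns, 11 matched a tissue in the labels, the meristem and spikelet columns by initials. A further 57, with codes matching no label, stayed out of every step. No pair of the 11 libraries held identical values.

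Of 109715 rows, 6 without a value were left out, and 29827 genes remained that reached 1 FPKM in 2 or more libraries. They were fitted on log2(FPKM + 1) with limma 3.58.1 (R 4.3.3), using all 11 libraries together, a mean for each tissue and a mean-variance trend, and all tests were two-sided. Benjamini-Hochberg adjustment ran over all tested genes of a comparison. A call required an adjusted p below 0.05 together with a log2 difference of 1 or more in either direction. The meristem, with 2 libraries, borrowed its spread from the other tissues. Whether replicates are separate plants is not stated in the labels. P-values therefore reflect only the spread among these libraries, which may be technical. Ratios within libraries were compared by exact permutation tests. The procedure was tested on simulated data.

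RefSeq's gene table for Zm-B73-REFERENCE-NAM-5.0 gave the names, through identifiers listed as synonyms. It held 15945 of the tested genes and both members. Protein and promoter sequences were not used here. Members and lists were chosen with earlier results of these data known. Named genes were the members, tested genes of the tubulin and wall protein lists, the 5 genes nearest to each member by r among those whose main symbol is a name (147 tested genes), and the nearest neighbours. Blast-based family members could not be added without sequences, nor the nearest relative by protein identity. Alternatives were pseudocounts of 0.1 and 0.5 FPKM, no filter, median-of-ratios scaling, fits on the compared tissues alone, a replicate block and leaving out each library.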

Additional observations from a re-analysis of the deposited data

How the results depend on the processing

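The number of genes called between internode 7-8 and internode 6-7 was 37, and this count was unsteady: 23 after median-of-ratios scaling, 16 with the internodes alone in the fit, and 7 to 161 when a library was left out. It was 7, 161 and 8 without internode 7-8 library 2, 3 and 4, and 16 without internode 6-7 library 3 or library 4. Same-numbered internode libraries had correlations of their deviations of -0.12, 0.202 and -0.114, within the -0.207 to 0.256 of differently numbered ones. With so few libraries these values do not settle whether the numbers pair them. A replicate block left 4 calls over all libraries and 4 over the internodes alone, the last an alternative chosen after seeing the data.

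For tub4 between the internodes the log2 difference stayed at -1.58 with the internodes alone (adjusted p = 0.0508), with the block over all libraries (0.0409) and with the block over the internodes alone (0.1), and lay between -1.70 and -1.48 with a library left out. For tub4 in spikelets against internode 6-7 it was -0.76 after scaling and -1.19 to -0.91 with a library left out, and the block kept it at -1.09. For plr354a in spikelets against internode 6-7 it turned to 0.22 after scaling and to 0.027 under the block, and ran from -0.49 to 0.26 with a library left out. The block also ended the call of tua5 in the meristem (-0.85), TUB1 against internode 6-7 (-0.96) and tua5 against internode 7-8 (-0.87) in spikelets, called GRMZM2G085970 higher (1.14) and zrp4 lower (-1.11) in the meristem, and left 0 cellulose synthases called lower there, against 1 without it. The causes were not tested. Pseudocounts of 0.1 and 0.5 FPKM and no filter on low values left every tested result of tub4 and plr354a on its side of the threshold with its sign. Without a depth in reads, no counting error can be given, and 2 meristem libraries limit its precision.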
